A study of Mus musculus with 8 samples.

Results

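Oligodendrocyte precursors are the dividing glial cells of the adult brain from which myelinating oligodendrocytes form, and 6 genes that mark these cells or their lineage were followed here in the medial prefrontal cortex (mPFC) of mice. The genes were Pdgfra, Cspg4, Gpr17, Olig1, Olig2 and Sox10, chosen by symbol, 6 of the 22180 genes with a probe set of their own on the array. Each was represented by the probe set annotated to that gene alone. Each gene had 1 such probe set, so there was no choice between probe sets to make. Genes were tested only if their level passed the median of the named genes on at least 2 arrays, which all 6 did, and 11712 genes were tested in all.

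The series held 8 Affymetrix arrays in 4 groups of 2. All mice carried a Cre-dependent ribosomal tag with green fluorescent protein (GFP), and all received CAV2-Cre in NAC or in VTA, the targets as the labels abbreviate them. CAV2-Cre is a canine adenovirus that carries Cre recombinase and is taken up at axon terminals. The first group was pull-down RNA from the mPFC after injection in NAC, precipitated with GFP-trap, and the second was pull-down RNA after injection in VTA. The third group was unpurified input RNA of the mPFC after injection in NAC and the fourth was input RNA after injection in VTA, so the inputs came from virus-injected tagged mice as well. The labels describe the inputs, too, as translating RNA of the projecting cells, but list no precipitation reagent for them. The labels name the cells as NAC-projecting or VTA-projecting mPFC cells and give no strain, age or sex, no promoter for the tag, and no statement on which animals or pools the 2 arrays of a group came from. The p-values thus reflect the spread of these arrays alone, and that spread may be technical. Arrays of the same group correlated at 0.981 to 0.991 over all probe sets, and arrays of different groups at 0.973 to 0.988. Having 2 arrays a group limits the precision throughout.

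In the lineage, Olig2 and Sox10 are transcription factors present from the precursor to the mature oligodendrocyte, and Olig1 is a close relative of Olig2. Precursors carry the platelet-derived growth factor receptor alpha (Pdgfra), which receives the mitogen PDGF-A, and the proteoglycan NG2 (Cspg4). As they commit to differentiate they switch these genes off and pass through a stage marked by the receptor Gpr17, before myelin genes come on. Pdgfra and Cspg4 are not private to the lineage: fibroblasts of the brain's coverings and vessels carry Pdgfra and pericytes carry Cspg4.

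All values below are the deposited log2 levels, with differences on the same log2 scale. Probe sets differ in how brightly they bind, so a gene's rank on an array describes its probe set and does not order the genes by abundance. Relative to the 22180 named genes of the same array, Olig1 and Olig2 lay between percentiles 84.5 and 92.2 on every array and Pdgfra between 73.4 and 87.6. Gpr17 and Sox10 lay between percentiles 67.9 and 79.3, and Cspg4 between 52.5 and 59.7, which was 0.16 to 0.60 above the array median. The genes lie at 5 loci in GRCm38.p6: Pdgfra on chromosome 5 (75151322 to 75198206), Cspg4 on 9 (56865104 to 56899870), Gpr17 on 18 (31942999 to 31949890), Sox10 on 15 (79154913 to 79164490), and Olig2 (91225550 to 91228677) and Olig1 (91269769 to 91271939) 41091 bp apart on 16. In that annotation Gpr17 overlaps Lims2, and a second probe set annotated to both genes was left out by the rule.

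The upstream sequences of a precursor gene that fell in the pull-downs (Pdgfra), a lineage factor that also fell (Olig2) and a precursor gene with no called change (Cspg4) are shown for reference. They are the 250 bases before the transcript start in RefSeq (GRCm38.p6), which for Pdgfra is a start inside the annotated gene. The table matched 3 of the 6 genes, so Gpr17, Olig1 and Sox10 are named only. Capitals mark the E-box CANNTG, the kind of site that basic helix-loop-helix factors such as Olig2 bind, and the SOX hexamers ACAAAG and ACAATG, searched on both strands.
Pdgfra, chr5:75152001-75152250, plus strand: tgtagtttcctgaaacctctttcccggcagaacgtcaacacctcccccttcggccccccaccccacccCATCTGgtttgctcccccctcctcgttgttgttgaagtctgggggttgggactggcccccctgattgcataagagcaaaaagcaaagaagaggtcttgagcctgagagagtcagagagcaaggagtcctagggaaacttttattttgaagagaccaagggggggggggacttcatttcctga
Olig2, chr16:91225300-91225549, plus strand: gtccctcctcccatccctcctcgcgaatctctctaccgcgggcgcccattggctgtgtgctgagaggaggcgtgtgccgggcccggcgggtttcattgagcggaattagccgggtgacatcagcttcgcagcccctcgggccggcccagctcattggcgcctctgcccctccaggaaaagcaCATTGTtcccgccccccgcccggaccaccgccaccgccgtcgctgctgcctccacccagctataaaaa
Cspg4, chr9:56864854-56865103, plus strand: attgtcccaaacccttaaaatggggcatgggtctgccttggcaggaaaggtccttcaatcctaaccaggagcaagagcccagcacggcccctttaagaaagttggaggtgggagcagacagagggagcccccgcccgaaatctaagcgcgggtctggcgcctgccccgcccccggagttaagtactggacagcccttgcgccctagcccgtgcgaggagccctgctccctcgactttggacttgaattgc
The Pdgfra window held 1 E-box, the Olig2 window 1 SOX hexamer (ACAATG, on the minus strand) and the Cspg4 window neither. Of 32851 promoter windows of the same length, 66.2% held an E-box, 16.5% held ACAAAG and 10.7% held ACAATG. These are matches of letters and not known sites.

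Pull-downs were set against inputs to see which transcripts were scarcer or richer in the GFP precipitate. Averaged over both targets, 4 of the 6 genes fell in the pull-downs, Pdgfra 1.77-fold, Gpr17 1.53-fold, Olig2 1.51-fold and Sox10 1.24-fold, and none rose. Over all 11712 genes, 41.5% were called in either direction, 9.6% higher and 32% lower. The median difference of the 6 genes was -0.45, against -0.11 for all genes tested. These falls set the precipitate against input RNA, both in bulk. They do not show a change in cell number or in RNA per cell, which bulk RNA cannot tell apart. The deposited scale matters for this comparison. Of the genes called, 23.1% were higher on that scale, 14.3% with each array centred on its median over all probe sets, 37.9% with quantile normalization, and 58.8% with each array centred on its median over the genes tested, a setting chosen after seeing the data. These settings put the all-gene median at -0.11, -0.16, -0.05 and 0.03. The last, called centring on the genes tested below, had 15% of all genes lower and 21.3% higher. With centring over all probe sets 5 of the 6 genes were called lower, Olig1 being added, beside 36.6% of all genes. With quantile normalization 4 were called lower, beside 23% of all genes. With centring on the genes tested Pdgfra, Gpr17 and Olig2 kept their calls at -0.69, -0.47 and -0.46, and Sox10 had -0.17 (limma adjusted p with Benjamini-Hochberg = 0.069).

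**Figure D1:**
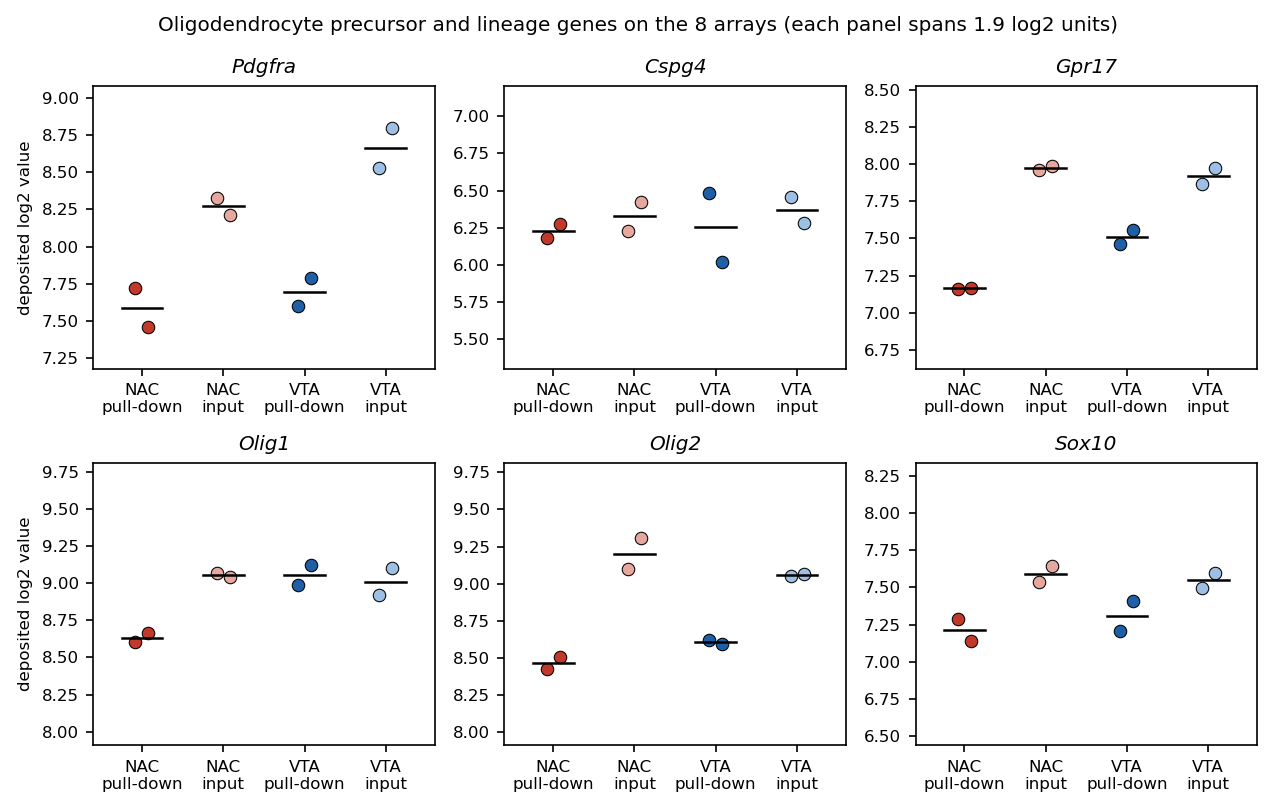
Deposited log2 values (vertical axis) of the 6 genes on the 8 arrays, by group. Points are single arrays, with array 1 left of array 2, and the bars are means of 2 arrays. All panels span the same number of log2 units. The 4 pull-downs lie under the 4 inputs for Pdgfra, Gpr17, Olig2 and Sox10, while the groups overlap for Cspg4, and for Olig1 only the NAC pull-downs, at 8.60 and 8.66, stand apart.

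Pdgfra, the receptor that keeps precursors dividing, had the largest fall of the 6 genes. Its levels were 7.72 and 7.46 in NAC pull-downs and 7.60 and 7.79 in VTA pull-downs, against 8.33 and 8.22 in NAC inputs and 8.53 and 8.80 in VTA inputs. All 4 pull-downs lay under all 4 inputs, and the pull-downs of both targets overlapped each other. Across all tested genes, 24.8% had 4 pull-downs that all lay under the 4 inputs. The averaged difference was -0.82 (SE 0.09, n = 4 pull-downs and 4 inputs; limma adjusted p with Benjamini-Hochberg = 0.00036), the 64th lowest of 11712. Leaving out any 1 array gave values from -0.89 to -0.76, all called.

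Cspg4, the NG2 proteoglycan gene of precursors and pericytes, gave no called difference. It lay at 6.18 and 6.27 in NAC pull-downs and at 6.49 and 6.02 in VTA pull-downs, against 6.23 and 6.43 in NAC inputs and 6.46 and 6.28 in VTA inputs. Pull-downs and inputs overlapped, and the VTA pull-downs held both the highest and the lowest value. The averaged difference was -0.11 with a 95% interval of -0.34 to 0.12 (limma adjusted p with Benjamini-Hochberg = 0.43). That interval does not reach the differences of Pdgfra, Gpr17 or Olig2, but it holds that of Sox10, and the direction turned to 0.03 with centring on the genes tested.

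Gpr17, the receptor of committed precursors, was the most even of the 6 between arrays of a group. It lay at 7.16 and 7.17 in NAC pull-downs and at 7.46 and 7.56 in VTA pull-downs, against 7.96 and 7.99 in NAC inputs and 7.87 and 7.97 in VTA inputs. The NAC pull-downs were lowest, the VTA pull-downs came next, and the inputs of both targets overlapped. The averaged difference was -0.61 (SE 0.06, n = 4 and 4; limma adjusted p with Benjamini-Hochberg = 0.00033).

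Olig2, the factor without which the lineage does not form in the mouse spinal cord, fell by nearly as much. It lay at 8.43 and 8.51 in NAC pull-downs and at 8.62 and 8.59 in VTA pull-downs, against 9.10 and 9.31 in NAC inputs and 9.05 and 9.06 in VTA inputs. Every pull-down lay under every input. The averaged difference was -0.59 (SE 0.07, n = 4 and 4; limma adjusted p with Benjamini-Hochberg = 0.00046).

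Sox10, which switches on myelin genes together with Myrf, fell by less. It lay at 7.29 and 7.14 in NAC pull-downs and at 7.21 and 7.41 in VTA pull-downs, against 7.54 and 7.64 in NAC inputs and 7.50 and 7.60 in VTA inputs. The groups of pull-downs and inputs did not overlap, but the highest pull-down, at 7.41, lay close to the lowest input, at 7.50. The averaged difference was -0.31 (SE 0.08, n = 4 and 4; limma adjusted p with Benjamini-Hochberg = 0.010), at the 19.6th percentile of all differences.

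Olig1, the neighbour of Olig2 on chromosome 16, missed the threshold in the average. It lay at 8.60 and 8.66 in NAC pull-downs and at 8.99 and 9.12 in VTA pull-downs, against 9.07 and 9.04 in NAC inputs and 8.92 and 9.10 in VTA inputs. The NAC pull-downs stood apart as the lowest pair, and the other 6 arrays overlapped. The averaged difference was -0.19 (SE 0.07, n = 4 and 4; limma adjusted p with Benjamini-Hochberg = 0.056). It passed in 4 of 16 alternatives and ranged from -0.24 to -0.05 over them, so its call depends on the processing.

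The targets were then taken one at a time. In NAC samples, 5 of the 6 genes fell in the pull-downs and none rose (8.01% of all tested genes were called lower, 4.34% higher and 12.3% either way), with a median of -0.55 against -0.06 for all genes. Both NAC pull-downs lay under both NAC inputs for the same 5 genes, as for 39.5% of all genes. In VTA samples, 3 of the 6 fell and none rose (25.9% called lower, 5.44% higher, 31.3% either way), with a median of -0.32 against -0.15. Both VTA pull-downs lay under both VTA inputs for these 3 and Sox10, as for 53% of all genes.

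In NAC samples Gpr17 averaged 7.17 ± 0.004 in pull-downs and 7.98 ± 0.02 in inputs (SD, n = 2 each), a difference of -0.81 (SE 0.09; limma adjusted p with Benjamini-Hochberg = 0.0020). Olig2 averaged 8.47 ± 0.06 in pull-downs and 9.20 ± 0.15 in inputs, a difference of -0.73 (adjusted p = 0.0036). Pdgfra averaged 7.59 ± 0.18 in pull-downs and 8.27 ± 0.08 in inputs, a difference of -0.68 (adjusted p = 0.013). Olig1 averaged 8.63 ± 0.04 in pull-downs and 9.05 ± 0.02 in inputs, a difference of -0.42 (adjusted p = 0.028). Sox10 had -0.38 (adjusted p = 0.047) and Cspg4 -0.10 (95% interval -0.43 to 0.23, adjusted p = 0.68). The calls of Gpr17 and Olig2 held in all 17 alternatives, that of Pdgfra in 13, that of Olig1 in 12 and that of Sox10 in 6. Leaving out the first NAC pull-down left 3 called genes (Gpr17, Olig2 and Pdgfra), and leaving out the second NAC pull-down or either NAC input left Gpr17 and Olig2. Sox10 lost its call without any 1 of the 4 NAC arrays or either VTA input, with both centrings, with quantile normalization, with no filter and with the NAC groups fitted alone. Its adjusted p over those settings ran between 0.054 and 0.26.

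In VTA samples Pdgfra averaged 7.70 ± 0.13 in pull-downs and 8.66 ± 0.19 in inputs (SD, n = 2 each), a 1.95-fold lower level (log2 difference -0.97, SE 0.13; limma adjusted p with Benjamini-Hochberg = 0.0023). Olig2 averaged 8.61 ± 0.02 in pull-downs and 9.06 ± 0.01 in inputs, a difference of -0.45 (adjusted p = 0.010). Gpr17 averaged 7.51 ± 0.07 in pull-downs and 7.92 ± 0.07 in inputs, a difference of -0.41 (adjusted p = 0.011). Sox10 had -0.24 with a 95% interval of -0.48 to -0.00088 and missed the threshold (adjusted p = 0.11). Olig1 had 0.05 (95% interval -0.18 to 0.27, adjusted p = 0.75) and Cspg4 -0.12 (-0.45 to 0.21, adjusted p = 0.57). The call of Pdgfra held in all 17 alternatives, while those of Olig2 and Gpr17 held in 14 and 13. Without the first or the second VTA input Pdgfra alone of the 6 was called, although Olig2 kept a difference of -0.45 in both cases and Gpr17 had -0.46 and -0.36. With centring on the genes tested Pdgfra was again the one called, and here the differences themselves were smaller, -0.25 for Olig2 and -0.21 for Gpr17. Without the first VTA pull-down Gpr17 lost its call at -0.36 (adjusted p = 0.052).

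**Figure D2:**
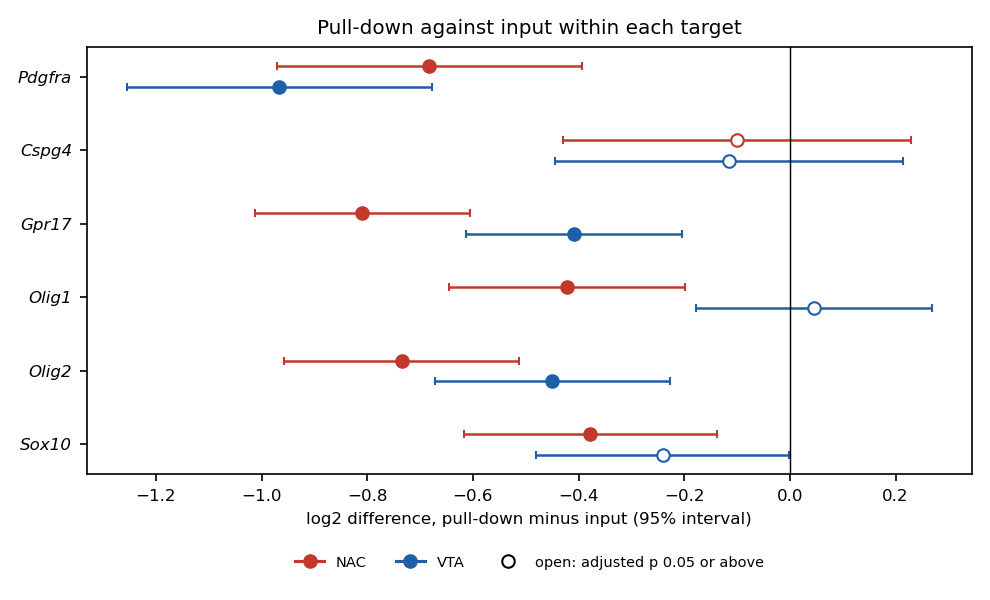
Log2 difference, pull-down minus input (horizontal axis), of each gene in NAC (red) and VTA (blue) samples, with 95% intervals from the model. Filled points passed an adjusted p of 0.05. Pdgfra lies at -0.68 in NAC and -0.97 in VTA samples, and Olig1 at -0.42 in NAC and 0.05 in VTA samples.

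An interaction term, the pull-down minus input difference in VTA samples less that in NAC samples, tested whether the depletion depended on the target. None of the 6 genes passed in limma with Benjamini-Hochberg adjustment, where 0.0683% of all tested genes did, and 2 of the 6 had an unadjusted p under 0.05. These were Olig1 at 0.47 (95% interval 0.15 to 0.78, limma adjusted p = 0.28) and Gpr17 at 0.40 (0.11 to 0.69, adjusted p = 0.29). Olig2 had 0.28 and Sox10 0.14, Cspg4 had -0.02, and Pdgfra lay on the other side of 0 at -0.28 (95% interval -0.69 to 0.12). That Olig1 was called in NAC and not in VTA samples is therefore no shown difference between the targets.

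The pull-downs of both targets were also set against each other directly, and so were the inputs, with no arrays shared between these comparisons. None of the 6 genes passed in the pull-downs in limma (2.47% of all genes were called), and 2 had an unadjusted p under 0.05. Both VTA pull-downs lay above both NAC pull-downs for Gpr17, Olig1 and Olig2, as for 15.4% of all genes. Olig1 averaged 9.05 ± 0.09 in VTA pull-downs and 8.63 ± 0.04 in NAC pull-downs (SD, n = 2 each), a difference of 0.42 (SE 0.10; limma adjusted p with Benjamini-Hochberg = 0.060). It passed with quantile normalization (0.46, adjusted p = 0.040), with centring on the genes tested (0.48, adjusted p = 0.037) and with trended, robust moderation (adjusted p = 0.012). Gpr17 averaged 7.51 ± 0.07 in VTA pull-downs and 7.17 ± 0.004 in NAC pull-downs, a difference of 0.35 (adjusted p = 0.089), and passed in none of 17 alternatives. The differences of Olig2, Pdgfra, Sox10 and Cspg4 were 0.14, 0.11, 0.09 and 0.03, each with an interval that held 0.

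In the inputs, again none of the 6 passed (1.5% of all genes were called), and 1 had an unadjusted p under 0.05. This was Pdgfra, at 8.66 ± 0.19 in VTA inputs and 8.27 ± 0.08 in NAC inputs, a difference of 0.39 (95% interval 0.10 to 0.68; limma adjusted p with Benjamini-Hochberg = 0.31). The other 5 lay between -0.14 (Olig2) and 0.04 (Cspg4). Both VTA inputs lay above both NAC inputs for Pdgfra, as for 34.3% of all genes, and under them for Olig2, as for 12.4%. Microglial markers did differ between the targets on the same arrays. Of 14 microglial genes, 6 were lower and 1 higher in VTA than in NAC pull-downs (all genes 2.05% and 0.418%), and 7 were lower and 1 higher in VTA than in NAC inputs (all genes 1.38% and 0.12%). Their mean level was 7.47 to 7.59 in VTA pull-downs and 7.91 to 7.93 in NAC pull-downs, and 7.96 to 8.004 in VTA inputs and 8.47 to 8.49 in NAC inputs. The part of the microglial genes in the values of the 6 genes was not tested. Of the other lists, 2 of 13 glutamatergic projection neuron genes were higher in VTA than in NAC pull-downs. Lower in VTA samples were 1 of 14 astrocyte genes in each comparison and 1 of 11 mural and fibroblast genes in the inputs.

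**Figure D3:**
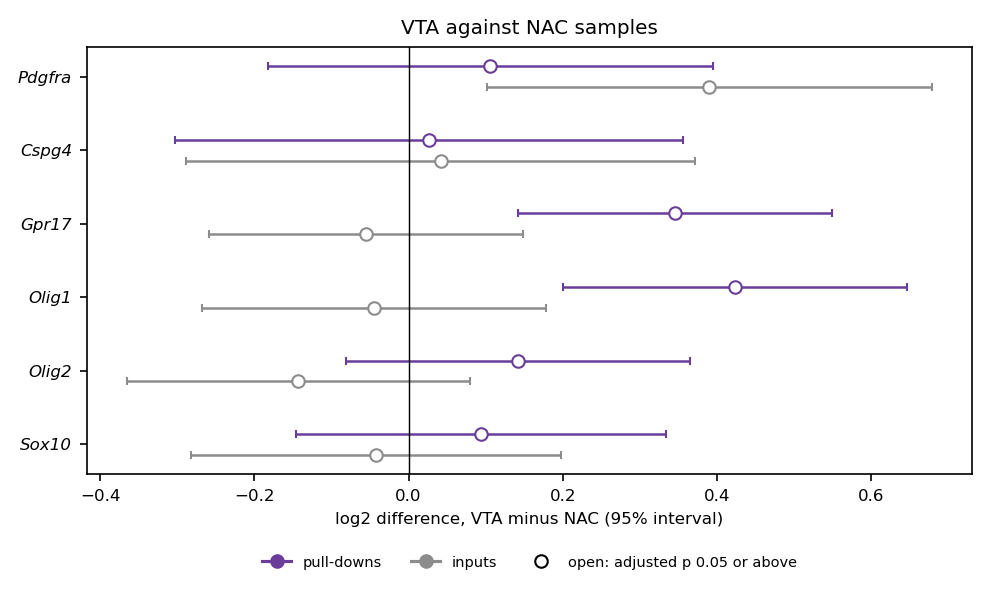
Log2 difference, VTA minus NAC (horizontal axis), of each gene in pull-downs (purple) and inputs (grey), with 95% intervals from the model. All points are open because none passed an adjusted p of 0.05. The intervals of Olig1 and Gpr17 in the pull-downs and of Pdgfra in the inputs lie above 0.

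Other genes of the lineage were taken from lists that do not hold the 6 genes. The lists, like the 6 genes, were chosen with earlier results of these data known. Of 14 tested precursor markers, 8 fell in the averaged comparison and none rose, with a median of -0.23 (32% of all genes were called lower). Ptprz1, a receptor phosphatase of precursors and astrocytes, fell by 0.68, the retinoid-binding gene Rlbp1 by 0.46, the proteoglycan gene Vcan by 0.45, and the matrix gene Tnr by 0.37. In NAC samples 4 of the 14 fell and in VTA samples 5, where 8.01% and 25.9% of all genes were called lower. With centring on the genes tested, 4 of the 14 were lower in the average, beside 15% of all genes. NAC samples then had 3 lower and none higher, beside 5.49% and 7.73% of all genes. VTA samples then had 2 lower and 2 higher (median -0.006), beside 9.25% and 14.7%. Of 8 tested genes of committed precursors and newly formed oligodendrocytes, 5 fell and none rose (median -0.28; 3 with that centring). They included Enpp6, a marker of newly formed oligodendrocytes, at -0.61 and the growth factor gene Bmp4 at -0.59. Tns3 had -0.39 and the calcium channel gene Itpr2 -0.31. In NAC samples 1 of the 8 fell and in VTA samples 4, where 8.01% and 25.9% of all genes were called lower. With that centring none fell in NAC samples and 2 in VTA samples, beside 5.49% and 9.25%.

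Of 12 further transcription factor genes of the lineage, 7 fell and none rose (median -0.24), beside 32% of all genes lower and 9.6% higher. In NAC samples 2 of the 12 fell and in VTA samples 3, where 8.01% and 25.9% of all genes were called lower. With centring on the genes tested 2 of the 12 were lower and 1 higher in the average, beside 15% and 21.3% of all genes. The count of lower genes was then near the background. In NAC samples none was then lower and in VTA samples 1 was, beside 5.49% and 9.25%. Zfp536 fell by 0.43, Zfp488, an oligodendrocyte zinc finger gene, by 0.42, Sox6, which holds precursors back from differentiating, by 0.37, and Nkx6-2 by 0.36. Of 11 genes for PDGF ligands, receptor adaptors and partners of NG2, 5 fell and none rose (median -0.20), and 4 were lower and 1 higher with that centring, to be read against the same shares of all genes. Pdgfrb, the PDGF receptor of pericytes, fell by 0.56, the integrin gene Itgb1 by 0.41, the ligand gene Pdgfc by 0.38 and the kinase subunit gene Pik3r1 by 0.34. Pdgfa, the ligand of Pdgfra that neurons and astrocytes make, had 0.08 (limma adjusted p with Benjamini-Hochberg = 0.36). Pdgfa falls outside the naming rule and was chosen as the ligand after its value was seen. Of 9 genes that hold back differentiation, 5 fell and none rose (median -0.22). With that centring and with quantile normalization 3 were lower and 1 higher. The receptor gene Gpr37 had -0.68, the BMP receptor genes Bmpr1b and Bmpr1a -0.54 and -0.34, and Id4 -0.23. In NAC samples 1 of the 11 PDGF and NG2 genes and 1 of these 9 fell. In VTA samples 3 of the 11 and 3 of the 9 fell, beside the shares of all genes given above for each target. With centring on the genes tested, VTA samples had 2 of the 11 and 2 of the 9 lower, and 1 of the 11 higher. In NAC samples none of the 11 and 1 of the 9 were then lower.

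Of 19 tested genes of myelin and mature oligodendrocytes, 17 fell and none rose in the average, beside 32% and 9.6% of all genes. Their median was -0.48, close to the -0.45 of the 6 genes. With centring on the genes tested 15 of them were lower, beside 15% of all genes. Their largest falls were those of the gap junction gene Gjc3 at -1.04, Aspa at -0.83, and the myelin protein genes Mal and Mog at -0.79 and -0.76. In NAC samples 13 of the 19 and 5 of the 6 genes fell, where 8.01% of all genes were called lower. In VTA samples 16 of the 19 and 3 of the 6 fell, where 25.9% were. With centring on the genes tested 10 of the 19 and 1 of the 6 fell there, beside 9.25% of all genes. With quantile normalization 12 of the 19 and 3 of the 6 fell, beside 15.8%. In both settings 1 of the 19 was higher in VTA samples, beside 14.7% and 8.15% of all genes. The difference between the lists was not tested.

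**Figure D4:**
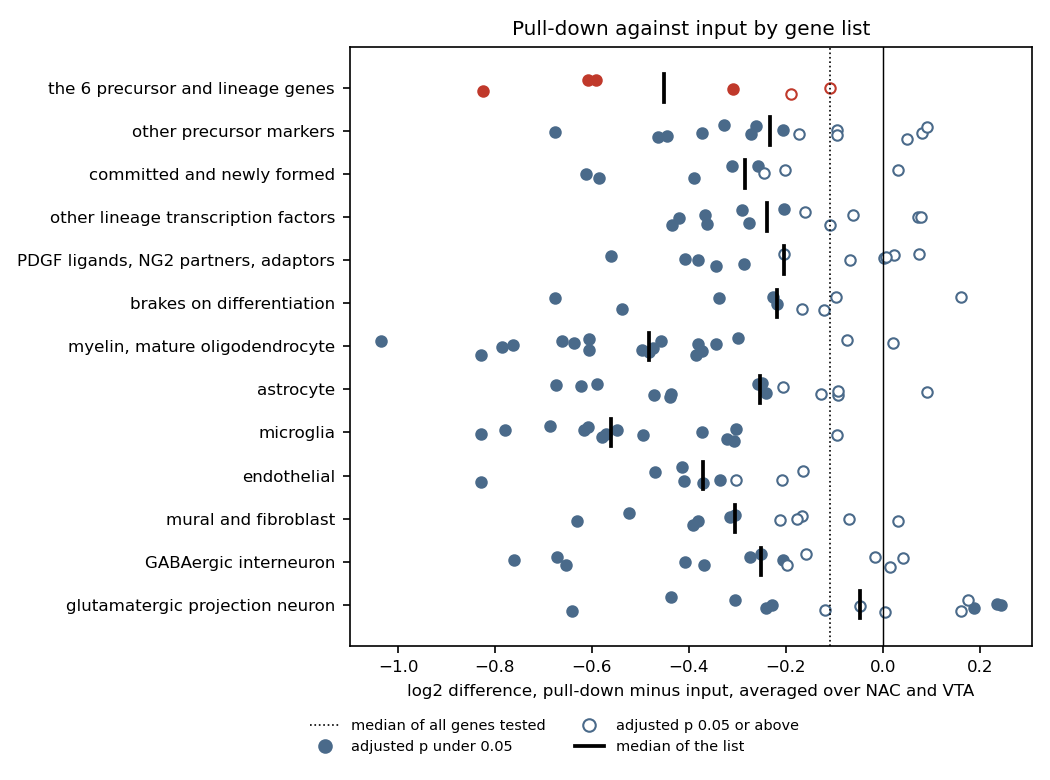
Log2 difference, pull-down minus input averaged over NAC and VTA (horizontal axis), for the 6 genes (red) and for the genes of each list (blue). Each point is a gene, filled where it passed an adjusted p of 0.05, thick bars are list medians and the dotted line is the median of all genes tested, -0.11. The median of the 6 genes lies at -0.45, those of the myelin and microglial lists at -0.48 and -0.56, and that of the glutamatergic projection neuron list at -0.05.

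Cells that share Pdgfra and Cspg4 with precursors were followed through their own markers. Of 11 tested mural and fibroblast genes, 6 fell and none rose (median -0.30; 4 with centring on the genes tested), with the pericyte gene Rgs5 at -0.63 and the fibroblast gene Dcn at -0.52. Their mean level was 6.83 to 6.87 in NAC pull-downs and 6.86 to 6.88 in VTA pull-downs, against 7.14 to 7.18 in NAC inputs and 7.10 to 7.16 in VTA inputs. Of the 15 in the list, Tagln, Lum, Lama1 and Higd1b lay under the filter. Their part in the values of Pdgfra and Cspg4 was not tested. Of the other lists, 13 of 14 microglial genes, 9 of 14 astrocyte genes, 6 of 9 endothelial genes and 8 of 13 GABAergic interneuron genes fell, with none higher (11, 6, 3 and 5 with centring on the genes tested, where 1 astrocyte gene was higher). Of 13 glutamatergic projection neuron genes, the main class of mPFC cells with distant targets, 3 rose and 5 fell, beside 9.6% and 32% of all genes. The count of higher genes in that list hung on the scale, as did the share of all genes. It was 0 (5 lower) with each array centred on its median over all probe sets, beside 6.12% higher and 36.6% lower of all genes. With quantile normalization it was 4 (5 lower), beside 14.1% and 23%. Centring on the genes tested gave 5 (2 lower), beside 21.3% and 15%. The mean level of the 13 projection neuron genes was 9.30 to 9.37 in NAC pull-downs and 9.35 to 9.43 in VTA pull-downs. It was 9.39 to 9.43 in NAC inputs and 9.46 to 9.47 in VTA inputs.

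The genes whose levels ran most like each of the 6 over the 8 arrays were picked by the highest Pearson's r among all tested genes. These values describe 8 arrays that all genes share. For Pdgfra they were Pdxk (r = 0.995), Map1b (0.992) and Tom1 (0.987). For Gpr17 they were Ppcdc (0.986), the Y RNA gene Rny3 (0.986) and Arnt2 (0.984), and for Olig2 they were Csrp1 (0.995), Mcc (0.985) and Specc1 (0.983). For Sox10 they were Hipk1 (0.990), Tmem63a (0.989) and 4933409K07Rik (0.986). Olig1 ran with the retinoid receptor gene Rxra (0.990), the GABA transporter gene Slc32a1 (0.973) and Epdr1 (0.962). Cspg4 had the lowest values, with the pseudogene Marcksl1-ps4 (0.924), which may share signal with its parent gene, Ctu1 (0.915) and Gm14405 (0.902). None of these 18 genes is a member of the oligodendrocyte lists, and Slc32a1 belongs to the interneuron list.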

How the data were processed

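RNA of mouse mPFC was measured on 8 arrays. The table deposited by the authors holds log2 values for 41345 probe sets, made with Transcriptome Analysis Console per the submitters' processing notes. Version, background correction and normalization were not given in the sources used here. Array medians lay between 5.08 and 5.22, and no further normalization was applied. Probe sets with 1 gene symbol in the platform annotation (23521; 1814 had several, 16010 none) gave 22180 genes, each as its probe set with the highest mean.

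Means of the 4 groups were fitted with limma 3.58.1 (lmFit, eBayes) in R 4.3.3, with 4 residual and 6.07 prior degrees of freedom. Tests were two-sided, adjusted by Benjamini-Hochberg over 11712 genes, with 0.05 as threshold. The fit was run on simulated data with 200 genes shifted up or down in equal numbers. That setting lacks the surplus of lower genes in these data, so it does not test the fit under such a surplus. Upstream sequences and coordinates are from RefSeq (GRCm38.p6).

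The members and lists were chosen with earlier results of these data known. Named from each lineage list were up to 4 called genes with the largest averaged difference, from lists of other cell types up to 2, and for each member the 3 genes of highest r. Alternatives were 2 centrings, quantile normalization, other filters, probe set means, trended moderation, a replicate block, the compared groups alone, and leaving out each array.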

Additional observations from a re-analysis of the deposited data

How the results depend on the processing

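Of 600 recomputed log2 differences of the 6 genes, 540 kept their direction and side of the threshold. Of the others, 28 lost a call, 7 gained one and 25 turned their direction, all 25 without a call in either setting. Other filters, probe set means, trended moderation, the replicate block and the compared groups alone left each log2 difference as it was. Leaving out an array of a group not compared did so too. In those settings only the call could change, so they did not test the direction. In the averaged comparison Pdgfra, Gpr17 and Olig2 were called in all 16 alternatives and Sox10 in 15. In NAC samples 2 genes were called with no filter, against 5. Over all genes 105 of 22180 were then called, against 1446 of 11712. In VTA samples 1 was called with centring on the genes tested, a setting chosen after seeing the data, against 3. The share of all genes called lower was then 9.25%, against 25.9%. Between the pull-downs 1 gene, Olig1, was called with that centring, with quantile normalization or with trended moderation, against 0. Leaving out each array gave 4 to 5 called genes in the average, 2 to 5 in NAC samples, 1 to 3 in VTA samples and 0 elsewhere; fewer arrays were then fitted, and a lone array is assumed to vary like the other groups. The cause of the other changes was not tested.

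Directions that turned were small. With each array centred on its median Olig1 had -0.031 in VTA samples and 0.0093 between inputs, and Sox10 0.012 between inputs. Cspg4 had 0.033 in the difference of enrichment with quantile normalization, and with centring on the genes tested 0.027 in the average, 0.079 in VTA samples, -0.026 between inputs and 0.10 in the difference of enrichment. Leaving out arrays, Cspg4 ran from -0.22 to 0.0074 in the average, -0.35 to 0.12 in VTA samples, -0.21 to 0.26 between pull-downs, -0.056 to 0.14 between inputs and -0.25 to 0.22 in the difference of enrichment. Olig1 ran from -0.044 to 0.13 in VTA samples and -0.13 to 0.044 between inputs, Sox10 from -0.0070 to 0.20 between pull-downs and -0.10 to 0.011 between inputs, and Pdgfra from -0.023 to 0.23 between pull-downs.

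Counts over all genes moved more. With no filter all 22180 named genes were tested in place of 11712. Against 1446 in NAC samples, 105 were called with no filter and 149 to 1848 without 1 array. Against 3671 in VTA samples these were 1907 and 415 to 3713, and against 4866 in the average 3068 to 5065 without 1 array. Against 289 between pull-downs they were 113 and 151 to 335, with 119 from the compared groups alone and 550 with trended moderation. Against 176 between inputs there were 100 to 206 without 1 array. Against 8 in the difference of enrichment there were 1 to 29. Same-numbered arrays deviated together in NAC samples (r = 0.30 over genes) but not in VTA samples (-0.02), so the numbers were not taken as pairs. Across targets same-numbered inputs had r = 0.22, NAC pull-downs and VTA inputs 0.18, and VTA pull-downs and NAC inputs -0.07. With the replicate block 5, 5 and 3 of the 6 genes were called in the average, NAC and VTA comparisons (Olig1 was added in the average at an adjusted p of 0.045), and 0 in the others. Pull-downs numbered alike across targets had r = -0.13, and the crossed replicate block called 171 genes and none of the 6.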
